A study of Mus musculus with 6 samples.

Results

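This account describes 35 mouse genes that encode the enzymes of the tricarboxylic acid (TCA) cycle and the steps that feed or drain it, in macrophages treated with piceatannol. They were chosen by gene symbol from a fixed list, by a rule that uses no measured value, although earlier results of these data were known when the list was made. All 35 were found among the 52459 genes of the count table and passed the filter on low counts that left 15380 genes for testing. RNA was sequenced from bone marrow derived macrophages of the C57BL/6 mouse strain, cultured with GM-CSF, a growth factor for myeloid cells. From day 7 of culture, the cells behind 3 libraries received the vehicle overnight (control) and those behind 3 received piceatannol, a stilbene made by plants that blocks the kinase Syk. The sources used here give neither the dose nor the vehicle, and they do not say whether replicate libraries stem from separate mice or cultures. The p-values therefore reflect only the variation among these libraries, which may be technical.

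In the TCA cycle, the pyruvate dehydrogenase complex turns pyruvate into acetyl-CoA, citrate synthase joins it to oxaloacetate, and a series of dehydrogenases returns citrate to oxaloacetate while passing electrons to the respiratory chain. Carriers in the inner mitochondrial membrane and enzymes such as ATP-citrate lyase and the aminotransferases draw intermediates out or refill them. In activated macrophages the cycle is known to be rewired: citrate leaves for lipid synthesis, succinate can accumulate, and the enzyme encoded by Acod1 diverts cis-aconitate to itaconate, an inhibitor of succinate dehydrogenase.

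Most genes of the cycle were lower with piceatannol, while several genes of entry and exit were higher. Each gene was tested with the quasi-likelihood method of edgeR, with p-values adjusted after Benjamini and Hochberg over all tested genes and a threshold of 0.05. Of the 35, 20 fell (57.1%), 8 rose (22.9%) and 7 did not pass. Over all 15380 tested genes 77.0% passed, 38.3% downward and 38.8% upward, so a call in itself was common in these data. The median log2 fold change of the 35 genes was -0.43, against 0.01 over all tested genes. Large changes were few: 5 of the 35 (14.3%) fell and 3 (8.57%) rose at least 2-fold, where 16.6% and 17.5% of all tested genes did. The values of the groups did not overlap for 29 of the 35 genes (82.9%), and for 79.0% of all tested genes. Piceatannol libraries lay below the controls for 20 of them and above for 9, where 39.2% and 39.9% of all tested genes did so. The 24 genes grouped under pyruvate dehydrogenase and the steps of the cycle held 16 of the falls and 3 of the rises. This group includes the cytosolic forms Aco1, Idh1 and Mdh1 and the mitochondrial NADP-linked form Idh2. The 11 genes of entry, exit and carriers held 4 falls and 5 rises.

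**Figure D1:**
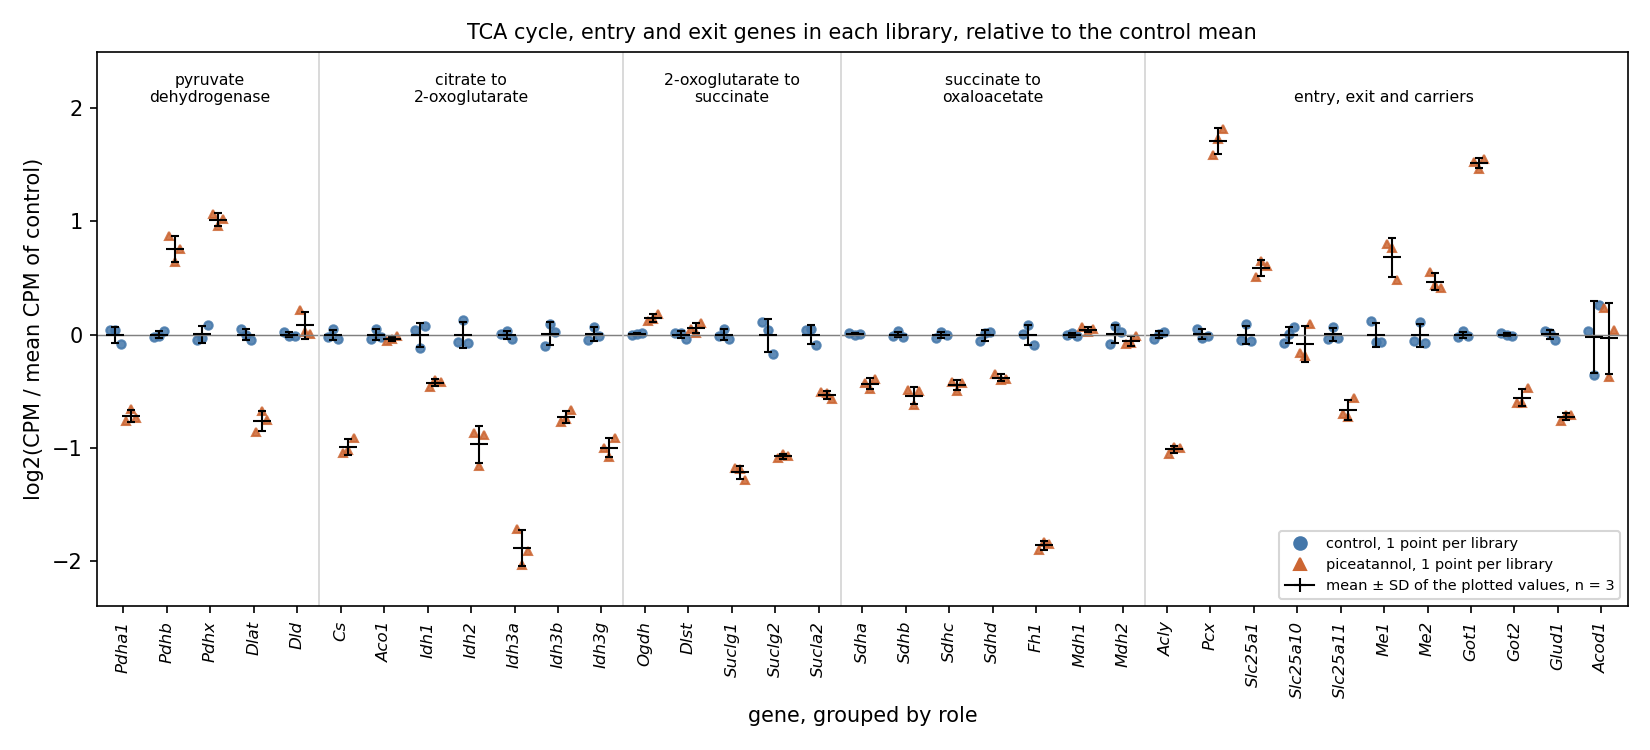
Each point is 1 library's CPM (counts relative to the TMM-scaled library total) of a gene divided by the control mean, on a log2 axis, with the genes grouped by role; circles are control and triangles piceatannol libraries, and bars are the mean ± SD of the 3 log2 values. Idh3a and Fh1 lie lowest, Pcx and Got1 highest, and the points of Acod1 spread widely in both groups.

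**Figure D2:**
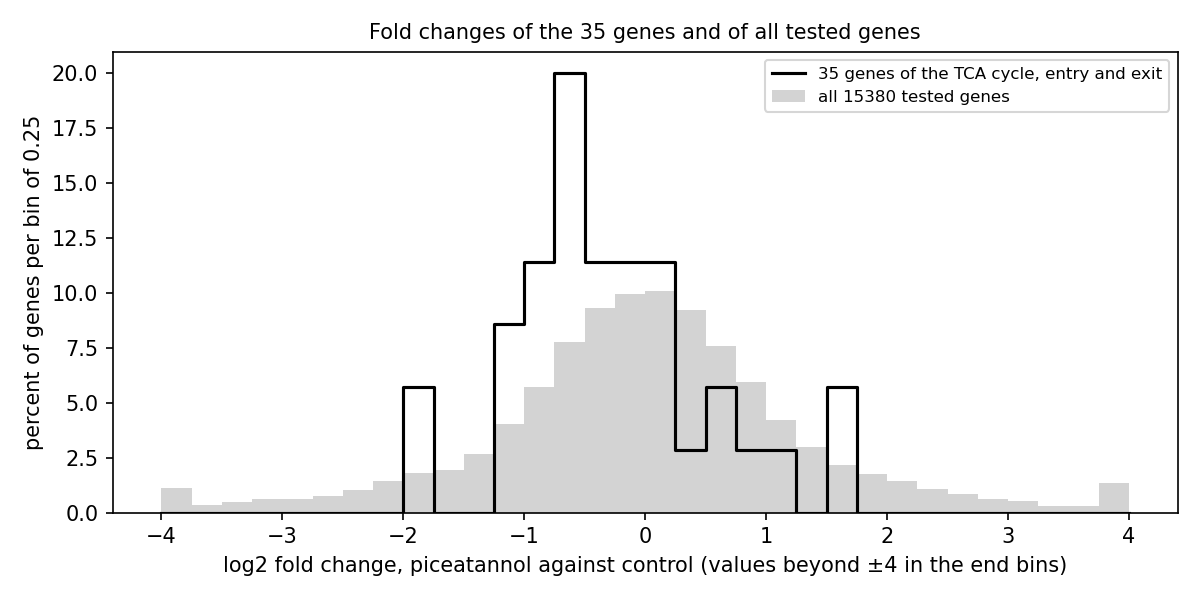
The share of genes in each bin of 0.25 of log2 fold change, piceatannol against control, for all 15380 tested genes (grey bars) and for the 35 genes (black line). The 35 genes lie between -1.88 and 1.71, and their most filled bin, from -0.75 to -0.5, holds 7 of them.

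The libraries held between 33276569 and 58697084 counts. The share of mitochondrially encoded genes was 0.777% to 0.866% in control and 1.87% to 2.65% in piceatannol libraries. All 8 macrophage markers checked were expressed; 2 of them rose and 6 fell, and their summed level was 18600 to 22600 CPM in control and 13200 to 14700 CPM in piceatannol libraries. Markers of other cells also moved with treatment, where 77.0% of all tested genes passed the threshold, 38.3% downward and 38.8% upward. The 4 fibroblast markers summed to 1890 to 2130 CPM in control and 466 to 506 CPM in piceatannol libraries, mostly from Col1a1 and Col1a2, with 3 of 4 falling. The 8 neutrophil markers summed to 247 to 569 CPM and to 33.7 to 41.6 CPM, with 6 of 6 tested falling and the defining marker Ly6g near 0 (means of 0.084 and 0.0303 CPM). The 8 dendritic cell markers summed to 735 to 756 CPM and to 415 to 630 CPM, with 5 of 7 tested falling and 1 rising. Most of this sum was Ccr7 (means of 563 and 481 CPM), which did not pass. Cd209a fell from a mean of 56.3 to 1.24 CPM and Dpp4 from 50.4 to 3.03 CPM, while Clec9a rose from 1.15 to 1.94 CPM. Markers of T cells, B cells and mast cells summed to at most 4.07 CPM in any library, and the 3 erythroid markers to at most 0.19 CPM. The part of these cells in the results below was not tested, and in bulk samples fewer cells of a type and less RNA per cell cannot be told apart.

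Promoter sequences are shown for 4 genes on which the results turn: the alpha and beta subunits of the first enzyme of pyruvate dehydrogenase, which moved in opposite directions, the fumarase gene, with one of the 2 deepest falls, and the cytosolic aspartate aminotransferase gene, with a strong rise. RefSeq sequences on GRCm38.p6, from 250 bases before to 50 bases after the transcription start, were matched for 32 of the 35 genes. They are written 5′ to 3′ on the strand of the gene, with matches to the motifs searched in capitals.
Pdha1 (chrX:160138381-160138680, minus strand): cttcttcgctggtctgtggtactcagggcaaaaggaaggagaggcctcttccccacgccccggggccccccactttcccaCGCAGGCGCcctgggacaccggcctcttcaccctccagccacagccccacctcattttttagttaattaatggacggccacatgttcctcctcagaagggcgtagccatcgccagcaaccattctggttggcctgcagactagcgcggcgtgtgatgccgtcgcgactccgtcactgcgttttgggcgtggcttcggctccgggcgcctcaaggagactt
Pdhb (chr14:8172943-8173242, minus strand): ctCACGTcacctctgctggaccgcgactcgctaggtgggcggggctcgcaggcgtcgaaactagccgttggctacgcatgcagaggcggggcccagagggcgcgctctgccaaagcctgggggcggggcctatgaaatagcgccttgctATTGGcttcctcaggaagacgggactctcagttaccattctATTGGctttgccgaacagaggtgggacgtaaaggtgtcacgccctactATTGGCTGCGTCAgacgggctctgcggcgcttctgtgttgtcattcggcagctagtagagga
Fh1 (chr1:175625586-175625885, minus strand): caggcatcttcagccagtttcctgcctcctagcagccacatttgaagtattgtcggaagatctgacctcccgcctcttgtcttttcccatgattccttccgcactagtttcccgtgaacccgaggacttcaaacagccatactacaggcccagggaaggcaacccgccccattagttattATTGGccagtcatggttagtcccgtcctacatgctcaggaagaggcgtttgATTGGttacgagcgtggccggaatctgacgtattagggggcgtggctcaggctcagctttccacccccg
Got1 (chr19:43524556-43524855, minus strand): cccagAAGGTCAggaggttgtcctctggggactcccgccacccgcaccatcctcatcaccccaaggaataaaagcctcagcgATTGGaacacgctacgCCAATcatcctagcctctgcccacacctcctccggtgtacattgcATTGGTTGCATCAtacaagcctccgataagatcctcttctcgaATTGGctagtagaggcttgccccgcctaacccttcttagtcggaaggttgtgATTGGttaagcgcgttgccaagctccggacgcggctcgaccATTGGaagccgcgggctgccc

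Both strands were searched for the core of NRF1 (GCGCNTGCG), ATF4 (TGATGNAA), the antioxidant response element (TGACNNNGC), the hypoxia response element (ACGTG), the E-box (CACGTG, which holds the hypoxia motif), ETS (CCGGAAG), ERR (AAGGTCA), YY1 (AAGATGG) and the CCAAT box (CCAAT). The Got1 window held the ATF4 motif at position -102 from the start site, and it was the only 1 of the 32 genes to do so (3.12%, against 2.83% of 10901 tested genes with a promoter and 3.97% of all 32851 windows). It also held 6 CCAAT boxes, a number reached by 18 of the 10901 tested genes (0.165%). The Pdhb window held 3 CCAAT boxes, the last directly followed, with 1 base shared, by an antioxidant response motif at position -8. That antioxidant motif was found in 6 of the 32 genes (18.8%) and in 17% of tested genes. The Fh1 window held 2 CCAAT boxes and the Pdha1 window the NRF1 core at position -170. CCAAT boxes were found in 21 of the 32 genes (65.6%), against 42.6% of tested genes and 37.4% of all windows; among genes with a window, 7 of 7 that rose and 10 of 18 that fell held one. The ETS motif was in 5 of the 18 that fell and in 0 of the 7 that rose, and in 19% of tested genes. The NRF1 core was in 8 of the 32 genes (25%) and in 14.6% of tested genes, but with a further C at its end in 4 (12.5%) and in 10.9%. The remaining shares of the 32 genes and of tested genes were 31.2% and 28.7% for the hypoxia response element, 9.38% and 11.5% for the E-box, 9.38% and 4.03% for ERR, and 3.12% and 8.35% for YY1. By direction, the hypoxia response element was in 5 of the 7 that rose and in 3 of the 18 that fell. In the same order, the E-box was in 3 and 0, ERR in 2 and 1, and the antioxidant motif in 2 and 2. The NRF1 core was in 1 and 6, and YY1 in 0 and 1. The windows had a median of 61.8% G and C and 21 CpG dinucleotides, beside 60.7% and 20 for tested genes. A match of letters is a description of the window only.

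The subunits of pyruvate dehydrogenase did not move together. Pdha1, encoding the alpha subunit of the pyruvate-decarboxylating enzyme E1 (chromosome X, 160122209 to 160138413), had 110, 110 and 101 CPM (normalised counts, scaled by library total and TMM factor) in the control libraries and 63, 67.7 and 64.3 CPM in the piceatannol libraries. Pdhb, encoding the beta subunit of the same enzyme (chromosome 14, 8165996 to 8173025), had 49.9, 50.4 and 51.8 CPM in control and 92.5, 79.2 and 85.8 CPM in piceatannol libraries. The groups overlapped for neither gene, and every piceatannol library lay below the controls for Pdha1 and above them for Pdhb. The log2 fold changes were -0.72 ± 0.06 (SE; adjusted p = 1.58e-09) for Pdha1 and 0.76 ± 0.07 (adjusted p = 1.95e-09) for Pdhb. In GENCODE M21, 16.1% of the exon bases of Pdha1 are shared with Map3k15 on the other strand, a gene with 1519 counts in the control libraries against 16629 for Pdha1.

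The E2 core and the subunit that binds E3 to it were split in the same manner. Dlat, encoding the acetyltransferase core E2, had 64.2, 61.9 and 59.9 CPM in control and 34.2, 38.8 and 36.7 CPM in piceatannol libraries, a fall of 0.76 on the log2 scale (SE 0.07; adjusted p = 2.4e-09). Pdhx, encoding the E3-binding protein (chromosome 2, 103021075 to 103073513), had 20.8, 21 and 22.8 CPM in control and 45.1, 41.8 and 43.6 CPM in piceatannol libraries. It rose by 1.01 ± 0.07 (SE; adjusted p = 8.46e-11), the largest rise among the genes of the complex and the cycle. Dld, encoding the lipoamide dehydrogenase E3 that this complex shares with 2-oxoglutarate dehydrogenase, did not pass, at 0.09 ± 0.07 on the log2 scale (adjusted p = 0.24), and its groups overlapped.

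Around the complex, genes of its regulators moved in both directions. The 9 genes counted encode the kinases that switch it off, the phosphatases that switch it on, a phosphatase regulator and the mitochondrial pyruvate carrier. Of these, 5 rose (55.6%), 3 fell (33.3%) and 1 did not pass, where 38.8% of all tested genes rose and 38.3% fell. The deepest fall was in the kinase gene Pdk3, from 60 ± 4.1 to 15.7 CPM (log2 fold change -1.93). The largest rise was in the phosphatase gene Pdp1, from 15.1 ± 0.17 to 31.2 CPM (1.05). The kinase genes were split, as Pdk1 (0.27) and Pdk4 (0.66) rose and Pdk2 (-0.03) did not pass. The phosphatase gene Pdp2 (0.60) rose and the regulator gene Pdpr (-0.52) fell. Of the carrier genes, Mpc1 (0.26) rose and Mpc2 (-0.79) fell.

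From citrate to 2-oxoglutarate, 6 of 7 genes fell (85.7%) and none rose, where 38.3% of all tested genes fell and 38.8% rose. The median was -0.96 on the log2 scale. Cs, encoding citrate synthase, had 305, 320 and 301 CPM in control and 150, 152 and 164 CPM in piceatannol libraries, which is 1.99-fold lower (log2 fold change -0.99 ± 0.06, adjusted p = 5.39e-12). Aco1, encoding the cytosolic aconitase that doubles as the iron-sensing protein IRP1, was the gene of this stretch that did not pass. Its values of 75.2 to 79.9 CPM in control and 74.3 to 76.2 CPM in piceatannol libraries overlapped, and its log2 fold change was -0.03 ± 0.06 (adjusted p = 0.604).

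The 3 subunits of the mitochondrial NAD-linked isocitrate dehydrogenase fell, where 38.3% of all tested genes did, and the alpha subunit fell by the most. Idh3a, encoding its catalytic alpha subunit (chromosome 9, 54586334 to 54604661), had 50.5, 51.4 and 48.9 CPM in control and 15.3, 12.3 and 13.4 CPM in piceatannol libraries. That is 3.67-fold lower, a log2 fold change of -1.88 ± 0.08 (adjusted p = 3.14e-14), the lowest value of the 35 genes, with that of Fh1 (-1.86 ± 0.07) within the error. The order of Idh3a and Fh1 turned under some alternatives, such as on log2(FPKM + 1), with -1.58 and -1.76. Idh3b and Idh3g, for the other two subunits, fell by 0.73 and 1.00 on the log2 scale. The NADP-linked enzymes, which supply reducing power rather than feed the respiratory chain directly, fell as well. Idh2, the mitochondrial form, went from 97.8 ± 7.79 to 50.2 ± 5.5 CPM (-0.96), and Idh1, the cytosolic form, from 111 ± 7.82 to 82.6 ± 1.75 CPM (-0.43; SD, n = 3 each).

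From 2-oxoglutarate to succinate, 3 of 5 genes fell (60%), those of the ligase, and 1 gene of the dehydrogenase passed upward (20%). Among all tested genes 38.3% fell and 38.8% rose. Ogdh, encoding the E1 enzyme of 2-oxoglutarate dehydrogenase, had 201, 203 and 204 CPM in control and 219, 222 and 229 CPM in piceatannol libraries. The piceatannol values all lay above the controls, by a log2 fold change of 0.14 ± 0.06 (adjusted p = 0.0254). This call was lost when libraries were scaled by their totals alone (adjusted p = 0.0738), with no filter (0.145), and without control replicate 1 (0.0829), control replicate 3 (0.0676), piceatannol replicate 2 (0.0556) or piceatannol replicate 3 (0.0785). Over all alternatives its adjusted p ran from 0.00215 to 0.145. Dlst, encoding the E2 succinyltransferase of the same complex, had 189 to 196 CPM in control and 196 to 208 CPM in piceatannol libraries (log2 fold change 0.06 ± 0.06, adjusted p = 0.34).

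All 3 genes of succinate-CoA ligase, the enzyme that makes ATP or GTP directly in the cycle, fell, as did 38.3% of all tested genes. Suclg1, encoding the alpha subunit common to both forms (chromosome 6, 73248382 to 73276911), had 85.9, 90 and 84.3 CPM in control and 38.4, 38.1 and 35.6 CPM in piceatannol libraries. It was 2.32-fold lower (log2 fold change -1.22 ± 0.06, adjusted p = 6.35e-13). Suclg2, of the GTP-forming beta subunit, went from 7.34 ± 0.717 to 3.49 ± 0.0491 CPM (-1.07), and Sucla2, of the ATP-forming beta subunit, from 52.9 ± 2.92 to 36.6 ± 0.887 CPM (-0.53).

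The 4 genes of succinate dehydrogenase, which is also complex II of the respiratory chain, fell by less than 1.5-fold each. The log2 fold changes were -0.43 for the flavoprotein gene Sdha, -0.54 for the iron-sulfur gene Sdhb, -0.44 for Sdhc and -0.37 for Sdhd, of the membrane anchors, each with an SE of 0.06. Their adjusted p lay at or below 5.1e-06 (Sdhd). The groups overlapped for none of the 4, but they also did not overlap for 79.0% of all tested genes, with piceatannol below for 39.2%. Of the 4 genes for complex II assembly factors 2 fell (50%, against 38.3% of all tested genes), with Sdhaf4 lowest at -0.70, and 2 did not pass.

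Fh1, encoding fumarase, the next enzyme of the cycle (chromosome 1, 175600374 to 175625635), had 99.6, 105 and 93 CPM in control and 26.5, 27.9 and 27.5 CPM in piceatannol libraries. All piceatannol values lay far below the controls, 3.63-fold on average, with a log2 fold change of -1.86 ± 0.07 (adjusted p = 1.57e-15). The malate dehydrogenase genes that follow did not pass in either compartment. Mdh1, the cytosolic form, had 201, 204 and 200 CPM in control and 211, 205 and 209 CPM in piceatannol libraries (0.05 ± 0.05, adjusted p = 0.443), a small gap without overlap. Mdh2, the mitochondrial form, had 163 to 182 CPM and 163 to 172 CPM (-0.06 ± 0.06, adjusted p = 0.381).

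**Figure D3:**
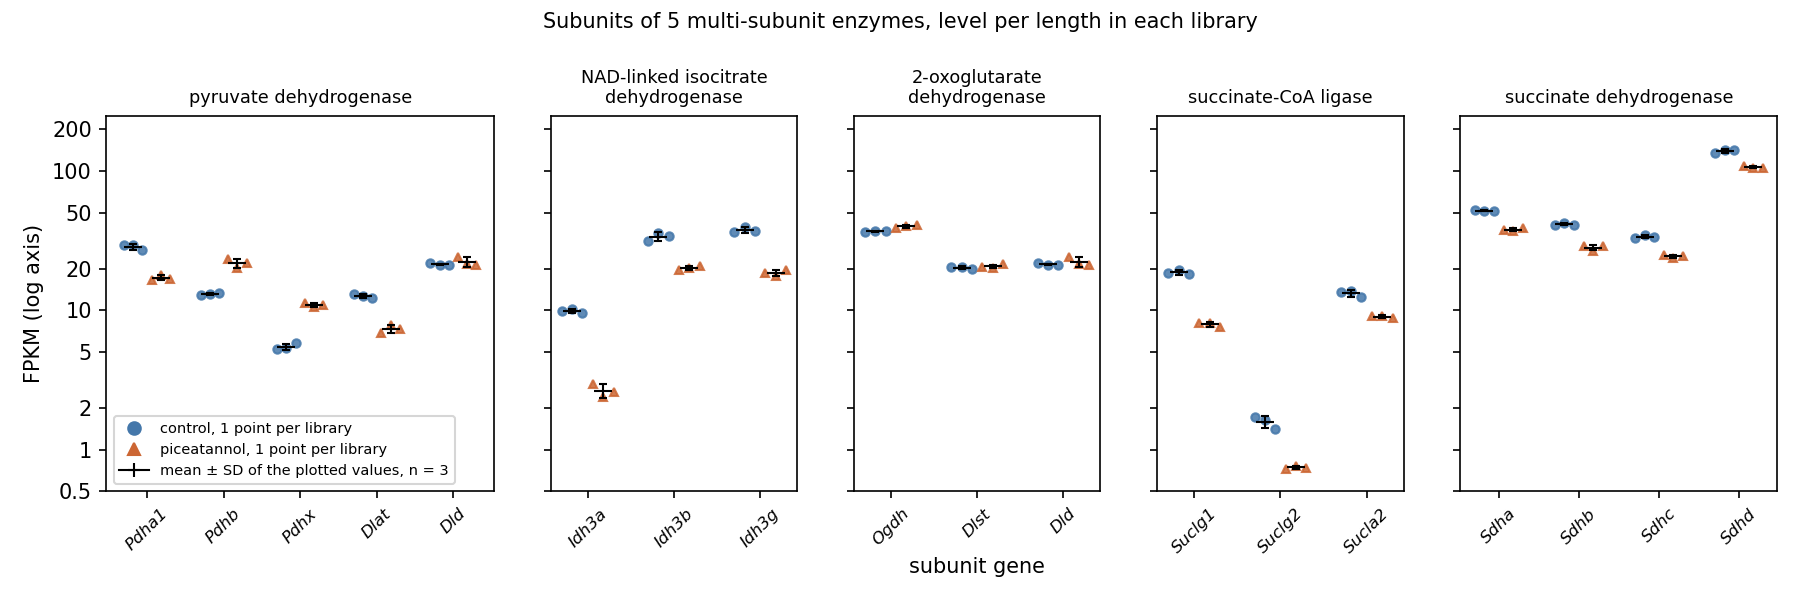
FPKM per library (fragments scaled by gene length and library size, log axis) of the subunit genes of 5 enzymes of the cycle, with circles for control and triangles for piceatannol libraries and bars for the mean ± SD of 3; Dld is drawn with both dehydrogenases that use it. The 4 succinate dehydrogenase genes shift down together, whereas Pdha1 and Pdhb exchange their order and Idh3a drops further than Idh3b and Idh3g.

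Values per gene length, the FPKM values, allow a rough comparison of levels between genes. Their lengths appear to be those of all exons of a gene rather than of 1 transcript. For Pdha1, 107 CPM and 28.7 FPKM in control go with its 3734 exon bases. The ranks and the levels of ratios depend on these lengths, whereas changes between the groups do not. In control libraries Sdhd had the highest level of the 35 genes (140 ± 4.62 FPKM), followed by Mdh1 (78.6 ± 0.999), Glud1 (76.9 ± 2.34) and Slc25a11 (76.2 ± 3.46), which did not differ beyond their spread. In piceatannol libraries Sdhd (107 ± 1.76) and Mdh1 (79.9 ± 0.964) were again highest, and Got1, which stood 20th of 35 in control, was 3rd at 65.8 ± 1.93 FPKM, beside Slc25a1 at 63.2 ± 3.28. Cs went from rank 6 (53.4 ± 1.88 FPKM) to rank 15 (26.4 ± 1.26), and Fh1 from rank 18 (29.2 ± 1.81) to rank 30 (7.93 ± 0.226). Me1 (0.93 ± 0.0693 FPKM), Suclg2 (1.59 ± 0.157) and Pcx (2.29 ± 0.07) were lowest in control libraries (SD, n = 3 for each value).

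Among the 35 genes, the largest rises in transcript level were those of Pcx and Got1. Pcx, encoding pyruvate carboxylase, which makes oxaloacetate from pyruvate (chromosome 19, 4510472 to 4621752), had 11, 10.4 and 10.5 CPM in control and 31.8, 35.1 and 37.2 CPM in piceatannol libraries. It was 3.26-fold higher (log2 fold change 1.71 ± 0.08, adjusted p = 2.26e-13). Got1, encoding the cytosolic aspartate aminotransferase (chromosome 19, 43499752 to 43524605), had 58.6, 60.7 and 59.1 CPM in control and 171, 164 and 174 CPM in piceatannol libraries. It was 2.85-fold higher (1.51 ± 0.06, adjusted p = 4.98e-15), and its control and piceatannol values were tightly grouped. Got2, encoding the mitochondrial form, moved the other way, from 60.5 ± 0.453 to 41.1 ± 2.18 CPM (-0.56 ± 0.06, adjusted p = 1.45e-07).

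Genes for the export of citrate and for its use diverged in direction. Slc25a1, encoding the mitochondrial citrate carrier, had 89.8, 98.7 and 89.2 CPM in control and 132, 145 and 141 CPM in piceatannol libraries, 1.51-fold higher (adjusted p = 3.63e-08). Acly, encoding ATP-citrate lyase, which splits exported citrate into acetyl-CoA and oxaloacetate (chromosome 11, 100476353 to 100528000), had 326, 336 and 340 CPM in control and 161, 168 and 167 CPM in piceatannol libraries, 2.02-fold lower (log2 fold change -1.02 ± 0.06, adjusted p = 1.75e-12). The carrier gene of 2-oxoglutarate and malate, Slc25a11, fell from 161 ± 6.83 to 102 ± 6.19 CPM (-0.66). Its exons share 8.92% of their bases with Rnf167 on the other strand. The dicarboxylate carrier gene Slc25a10 did not pass (-0.07 ± 0.08 on the log2 scale, adjusted p = 0.387), but passed without piceatannol replicate 3 (-0.17, adjusted p = 0.0409), the library with its highest value.

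Both malic enzyme genes among the 35, whose products return malate to pyruvate, rose, as did 38.8% of all tested genes. Me1, the cytosolic NADP-linked form, went from 3.57 ± 0.267 to 5.76 ± 0.663 CPM (0.68 ± 0.15, adjusted p = 0.000256), and Me2, a mitochondrial form, from 52.9 ± 3.79 to 73.1 ± 3.87 CPM (0.47 ± 0.07, adjusted p = 3.12e-06). Me1 rests on 205, 150 and 202 counts in control libraries and has a processed pseudogene with a transcript 98.5% identical over 1638 bases, so its small values are uncertain. Glud1, encoding glutamate dehydrogenase, which turns glutamate into 2-oxoglutarate, fell from 314 ± 9.09 to 190 ± 4.18 CPM (-0.73 ± 0.06, adjusted p = 3.54e-10). Pdhb, Suclg2, Got2 and Glud1 also have near-identical pseudogenes (at least 95% identity over at least 300 bases), which held between 22 and 123 counts over all 6 libraries.

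Acod1, the itaconate-forming enzyme gene that is a known mark of activated macrophages (chromosome 14, 103046977 to 103056573), was the most variable of the 35 genes between replicates. It had 79.5, 60.6 and 93.4 CPM in control and 91.7, 59.9 and 80.1 CPM in piceatannol libraries. The groups overlapped almost entirely, and replicate 2 was the lowest of both. The difference, -0.01 ± 0.24 on the log2 scale, did not pass (adjusted p = 0.97), and the wide error leaves changes of the size seen for Idh1 or Ogdh undetectable here. It was 0.14 without control replicate 3 and also without piceatannol replicate 2, with an adjusted p of 0.624 and 0.555.

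Ratios between genes were taken within each library, from FPKM, for 8 pairs, and compared by an exact two-sided permutation test over the 6 libraries; with 3 against 3 its smallest p is 0.1, so no ratio could pass 0.05 and the values are given with their overlap. The ratio of Got1 to Got2 was 1.83, 1.91 and 1.87 in control and 8.14, 7.81 and 7.59 in piceatannol libraries, a 4.2-fold gap. In control their mean CPM were near equal, at 59.5 and 60.5, so the level of this ratio rests on the gene lengths. The gap does not, with a log2 difference of 2.07 on FPKM and on CPM. Pcx to Pdha1 was 0.0799 ± 0.00379 in control and 0.43 ± 0.0318 in piceatannol libraries; it takes 1 subunit of pyruvate dehydrogenase, whose gene fell while Pdhb, of the other E1 subunit, rose by 0.76. Acod1 to Idh3a was 3.01 ± 0.709 and 10.9 ± 1.23, with Idh3a lower in every piceatannol library and Acod1 overlapping. Sucla2 to Suclg2 was 8.4 ± 0.416 and 12.2 ± 0.355, and Idh1 to Idh2 was 1.07 ± 0.153 and 1.55 ± 0.211 (SD, n = 3 each). For these 5 pairs the groups did not overlap (exact permutation p = 0.1 each, 0.16 adjusted over the 8). They overlapped for Mdh1 to Mdh2, for Me1 to Me2 (p = 0.2 each, exact permutation) and for Acly to Cs, which was 1.19 ± 0.0451 and 1.17 ± 0.0484 (p = 0.8, exact permutation), as both genes were near 2-fold lower.

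A further 4 ratios, chosen after their values were seen and so not tested, show the subunits that parted. Pdha1 to Pdhb, the subunits of one enzyme, was 2.29, 2.25 and 2.02 in control and 0.705, 0.883 and 0.774 in piceatannol libraries. The gene of the pair with the higher FPKM was Pdha1 in the former and Pdhb in the latter. Pdhx to Dlat was 0.432 ± 0.0369 and 1.49 ± 0.148. Idh3b to Idh3a was 3.43 ± 0.238 and 7.69 ± 0.949, and Idh3g to Idh3a was 3.82 ± 0.136 and 7.08 ± 0.714 (SD, n = 3 each).

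**Figure D4:**
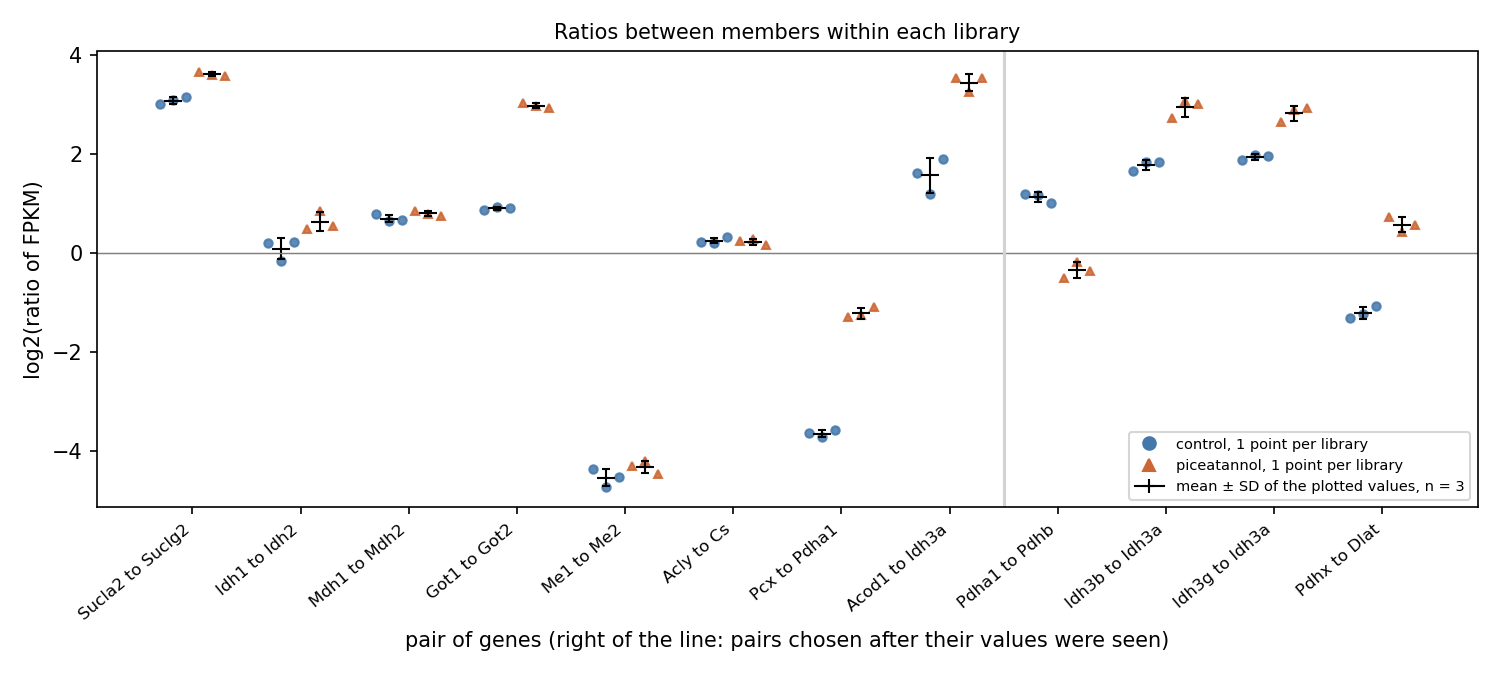
The log2 ratio of FPKM of 2 genes within each library, for the 8 pairs tested (left of the line) and 4 pairs chosen after their values were seen (right); circles are control and triangles piceatannol libraries, bars are the mean ± SD of 3 log2 ratios, and 0 marks equal levels. Got1 to Got2, Pcx to Pdha1 and Acod1 to Idh3a show the widest gaps of the 8, and Pdha1 to Pdhb and Pdhx to Dlat cross 0.

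Further genes that supply, drain or maintain the cycle were counted in lists. Of the 52 tested, 20 rose (38.5%) and 22 fell (42.3%), with a median of -0.08 on the log2 scale. These shares were near the 38.8% and 38.3% of all tested genes. No list was tested as a set. In glutamine and glutamate entry, 4 of 9 tested genes rose and 4 fell (44.4% each). Glul, encoding glutamine synthetase, went from 97.6 ± 3.93 to 410 CPM (2.07) and the glutaminase gene Gls2, close behind, from 2.97 to 12.5 CPM (2.07), while Slc25a12, encoding a mitochondrial aspartate-glutamate carrier that works with Got1 and Got2 in the malate-aspartate shuttle, went from 93.3 ± 5.11 to 26.5 CPM (-1.81). In propionate, ketone and acetate entry, 5 of 8 fell (62.5%) and 2 rose (25%). Pccb, encoding the propionyl-CoA carboxylase beta subunit, had 24, 30.3 and 23.4 CPM in control and 3.56, 4.21 and 3.26 CPM in piceatannol libraries (-2.83). Acss2, encoding the cytosolic and nuclear acetyl-CoA synthetase, had 7.95, 8.48 and 8.16 CPM in control and 47.6, 55 and 53.6 CPM in piceatannol libraries (2.67).

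Of 10 genes for lipoylation and iron-sulfur cluster assembly, on which the dehydrogenases and aconitase depend, 5 fell (50%) and 3 rose (30%). Over all tested genes 38.3% fell and 38.8% rose, shares that also stand beside the counts that follow. Iba57 was lowest (-1.15). In the branched-chain 2-oxoacid dehydrogenase complex, a relative of pyruvate dehydrogenase, 3 of 5 fell and 2 rose, with the E2 gene Dbt at -1.31 and the phosphatase gene Ppm1k at 0.63. Of 5 tested genes for handling itaconate, succinate and 2-hydroxyglutarate, 3 rose (60%) and none fell. Sugct was highest at 1.01 ± 0.28 (SE), from a mean of 0.58 CPM in control. Clybl lay within that error at 0.96 ± 0.1 (SE), from 9.62 to 18.7 CPM. Among other exits, Pck2, encoding the mitochondrial phosphoenolpyruvate carboxykinase, was higher (log2 fold change 0.27, adjusted p = 0.000555), whereas the carrier gene Slc13a3, with means of 0.457 and 0.284 CPM, did not pass.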

How the data were processed

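RNA was sequenced from 6 libraries, grouped by their titles into 3 control and 3 piceatannol libraries. The deposited files hold raw counts per gene symbol and, made by the authors for the same genes, FPKM values whose scaling between libraries matched median-of-ratios size factors. Bcl2fastq, STAR, featureCounts and DESeq2, with the builds mm10 and GRCm38, are named in the submitters' processing notes; their versions, the annotation and the strand setting are in no source used here, so reads of overlapping genes on opposite strands cannot be told apart. Libraries were made from total RNA with a TruSeq kit, per the labels' protocols.

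Counts were filtered with edgeR's filterByExpr (version 4.0.16, minimum count 10), scaled with TMM factors (0.9848 to 1.016) and compared with the quasi-likelihood test, robust, two-sided, without covariates, with Benjamini-Hochberg adjustment over all tested genes and a threshold of 0.05. The SE of a log2 fold change is its size over the square root of F. CPM are counts relative to the TMM-scaled library total. Replicate libraries were not copies of each other: chi-square over degrees of freedom was 9.91 to 18.2 between them. Gene positions and overlaps are those of GENCODE M21 on GRCm38, and near-identical transcripts were found with blastn 2.17.0. Alternatives were other factors and filters, DESeq2 1.42.0, limma 3.58.1 on voom values and on log2(FPKM + 1) and log2(FPKM + 0.1), a replicate block, no mitochondrially encoded genes, and each library left out. The genes and lists were chosen with earlier results of these data known, and the motifs and the 4 added ratios after these values were seen. All 35 genes are named. Of each list, the rule names the gene changed most in each direction. Others (Gls2, Slc13a3, Clybl and the remaining regulator and carrier genes of pyruvate dehydrogenase) were added after their values were seen. Of the genes this rule names, 1 is not reported here. Tested on simulated counts for this comparison (15127 genes), edgeR recovered 59.7% of genes changed 1.5-fold, 88.1% at 2-fold and 92.4% at 4-fold, with 14 false calls. The simulation changed only 67, 67 and 66 genes at these folds, whereas 77.0% of tested genes passed in the data. The adjustment is stricter where few genes change, so these shares do not give the recovery in the data.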

Additional observations from a re-analysis of the deposited data

How the results depend on the processing

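Of the 35 genes, 29 kept their direction and their side of the threshold under each of the 18 alternatives that gave them a value, and 20 were called lower and 7 higher in each. Me1 had no value with the filter of CPM at least 5 in 3 libraries, which removed it. The number of genes called among all tested was 11846, and 11487 to 11880 when 1 library was left out. The calls that changed were those of Ogdh, given above, of Dlst, called with the filter of CPM at least 5 in 3 libraries (0.12, adjusted p = 0.0496), and of Slc25a10. Directions turned only for values near 0: Aco1 was 0.018 with upper-quartile factors and 0.024 with the stricter filter, Mdh2 was 0.00017 with the stricter filter, and Acod1 was 0.041 with upper-quartile factors, 0.047 with the stricter filter and, with 1 library left out, between -0.17 and 0.14, positive without control replicate 3 or piceatannol replicate 2. The log2 difference of the Acly to Cs ratio, -0.02, lay between -0.05 and 0.01 with 1 library left out, and was 0.01 without control replicate 3 or piceatannol replicate 3. With the replicate number as a block, 8 of the 35 rose and 20 fell, as without it, and 12012 of all genes were called. In 7 of the 8 ratios, all 3 differences within replicate numbers had 1 sign. Same-numbered libraries correlated at 0.0369, 0.0696 and 0.0654 in their deviations from the group means. These values were small, but each library correlated best with its own number. Values between libraries of different number lay from -0.0717 to 0.0174. The titles give only a number, and whether same-numbered libraries share a batch or culture was not tested. Suclg2 and Me1, with 117 to 418 and 150 to 261 counts per library, rest on the fewest counts; the SE was 0.14 and 0.15, and the largest SE was that of Acod1 (0.24).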
